A study of Mus musculus with 2 samples.

Results

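Transforming growth factor beta (TGF-beta) signalling was described here through 10 of its components, chosen by name, out of 10535 genes with at least 1 named intron in the data. They were the ligand gene Tgfb1, the latency protein gene Ltbp1, the receptor genes Tgfbr1 and Tgfbr2, the signal transducer genes Smad2, Smad3 and Smad4, the inhibitory gene Smad7, and the corepressor genes Ski and Skil. RNA was sequenced from mouse macrophages given interleukin 10 (IL-10, 100 ng/ml, 4 h) and from macrophages left untreated, each group being 1 library. Both groups were male C57BL/6JJcl cells that had adhered in culture after thioglycolate, an irritant broth, had drawn them into the peritoneum. The labels do not say how many mice gave the cells, and the protocol text of the untreated sample repeats the treatment, so the groups follow the sample titles.

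TGF-beta is secreted in a latent complex, held inactive by its own propeptide, which a latent TGF-beta binding protein can tie to the matrix. Once released, the ligand binds the type II receptor, which recruits and phosphorylates the type I receptor. The type I receptor then phosphorylates Smad2 and Smad3, which enter the nucleus with Smad4 and act on target genes, while Smad7 blocks the receptor and Ski and its relative SnoN, encoded by Skil, repress the Smads on DNA. In macrophages, TGF-beta, like IL-10, is known as a brake on inflammatory gene expression.

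The measured values were numbers of reads that crossed a splice junction, with 3998954 such reads in IL-10-treated cells and 4035991 in untreated cells. A gene's value was the sum over its annotated introns, and the ratio of IL-10 to untreated was taken after each sum was divided by the library's total on named introns, 3842046 reads with IL-10 and 3870286 in untreated cells. With 1 library per group there is no test of the treatment. Levels of different genes are compared as RPM per intron, the reads per intron with reads in every 1000000 named reads, since a gene with more introns collects more spliced reads. Every interval is an exact 95% interval of counting error between these libraries, and a read that crosses several junctions can count at each of them. Genes with 20 or more reads in the libraries together counted as measured, and such a gene was called 2-fold different where its ratio was 2 or above, or 0.5 or below, with 1 outside the interval. Of 12 macrophage markers 10 were measured, with intervals above 1 for 4 (Msr1, Mrc1, Itgam and Fcgr1), below 1 for 4 (Lyz2, Csf1r, Cd68 and Mertk) and including 1 for Adgre1 and Marco. Over all measured genes, intervals lay above 1 for 12.8% and below 1 for 13.1%. The markers were not matched in reads to all measured genes, and intervals narrow as reads increase. Lyz2, the lysozyme gene and the marker with the most reads, had 31849 in IL-10-treated cells and 45047 in untreated cells, and the summed level of the list was 16917 reads in every 1000000 named reads (RPM) with IL-10 and 20669 in untreated cells.

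No component of the pathway was called different between the libraries. All 10 had at least 20 reads, 0 were called 2-fold higher and 0 were called 2-fold lower, where 1.76% and 1.48% of the 8369 measured genes were so called, 3.24% in all. With a smaller fold of 1.5, 0 components were called in either direction, against 4.25% of measured genes higher and 4.01% lower, 8.27% in all. At these background shares, a count of 0 among 10 genes does not set the components apart from other genes, and the intervals of Ltbp1, Smad3 and Smad7 reached beyond 2-fold. Of the components 9 lay within 1.5-fold, as did 85.4% of all measured genes. Ratios lay above 1 for 6 components and below 1 for 4. The interval excluded 1 for Tgfbr1 alone, which was lower, while that of Smad4 ended just above 1, and over all measured genes it lay below 1 for 13.1% and above 1 for 12.8%. The median log2 ratio was 0.11 over the components, beside -0.0011 over all measured genes.

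**Figure D1:**
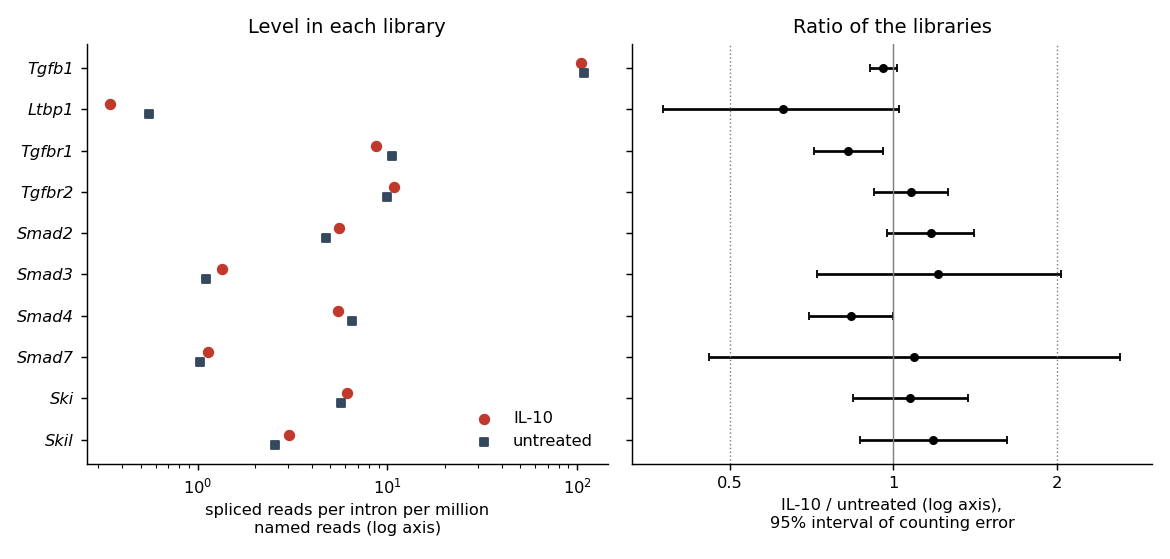
Left, the level of each component in the IL-10 and untreated libraries, as spliced RPM per intron on a log axis. Right, the ratio of IL-10 to untreated on a log axis, with the 95% interval of counting error as bars, a solid line at 1 and dotted lines at 0.5 and 2. Tgfb1 stands far to the right of the other components, and only the interval of Tgfbr1 does not reach 1.

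Tgfb1, the gene of the ligand itself, was by far the most abundant component and was nearly equal in the libraries. It had 2401 reads with IL-10 and 2522 in untreated cells, a ratio of 0.959 (95% interval 0.907 to 1.01), and held 62.1% of all reads of the components in IL-10-treated cells and 62.5% in untreated cells. Its level was 104 RPM per intron with IL-10 and 109 in untreated cells, which is 9.67 times the level of Tgfbr2 with IL-10 and 10.9 times in untreated cells. Its introns lie on the plus strand of chromosome 7 between bases 26473243 and 26489802 of the mm9 build. The least covered intron in each library had 127 reads with IL-10 and 152 in untreated cells, more than any intron of any other component, the highest of which had 90 with IL-10 and 100 in untreated cells.

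Within Tgfb1, the introns differed from one another more than the libraries did. The third intron had 848 reads with IL-10 and 860 in untreated cells (ratio 0.993), and the last had 660 with IL-10 and 669 in untreated cells (0.994). The first intron was the lowest in IL-10-treated cells, with 127 reads, and had 167 in untreated cells (0.766, 0.603 to 0.971), and its own interval excluded 1. The fourth intron ran the other way, with 177 reads with IL-10 and 152 in untreated cells (1.17, 0.939 to 1.47). The highest intron had 6.68 times the reads of the lowest in IL-10-treated cells and 5.66 times in untreated cells, and 5 of the 6 introns lay on the same side of 1 as the sum.

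Ltbp1 encodes the latent TGF-beta binding protein that couples the ligand's latent complex to the extracellular matrix. It was the least abundant component, with 28 reads in IL-10-treated cells and 45 in untreated cells (0.627, 0.377 to 1.03). Its level was 0.347 RPM per intron with IL-10 and 0.554 in untreated cells. This was the ratio farthest from 1 among the components, and its interval included 1. The reads were thinly spread: of the 33 introns of the transcript with the most covered introns, on the plus strand of chromosome 17 between 75578545 and 75789711 (mm9), 8 had reads in IL-10-treated cells and 20 in untreated cells. Its first 2 covered introns had 10 reads with IL-10 and 3 in untreated cells, while the next 7 had 0 with IL-10 and 13 in untreated cells, a grouping picked after the values were seen. Without its most covered intron, which had 7 reads with IL-10 and 5 in untreated cells, Ltbp1 would count as 1.5-fold lower, with 21 reads with IL-10 and 40 in untreated cells (0.529, 0.296 to 0.919).

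The receptors were moderately abundant and close to each other in level. Tgfbr1, the type I receptor kinase that phosphorylates Smad2 and Smad3, had 335 reads with IL-10 and 408 in untreated cells, and its ratio of 0.827 (0.714 to 0.958) put it below 1 beyond counting error. Its introns with reads lie on the plus strand of chromosome 4 between 47366269 and 47423523 (mm9). Among 9 introns that had 5 reads or more, 8 lay below 1, the lowest with 39 reads in IL-10-treated cells and 63 in untreated cells (0.624, 0.407 to 0.944). The difference was small, however, and did not hold on every count: a 99% interval reached from 0.682 to 1.002, and its most covered intron by itself, at 90 reads with IL-10 and 100 in untreated cells, gave a ratio of 0.907 (0.674 to 1.22).

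Tgfbr2, the ligand-binding type II receptor, had 331 reads with IL-10 and 309 in untreated cells (1.08, 0.921 to 1.26). Its introns lie on the minus strand of chromosome 9 between 115999676 and 116084061 (mm9). An intron of 1538 bases had 85 reads with IL-10 and 58 in untreated cells (1.48, 1.05 to 2.10), whereas its last had 19 with IL-10 and 28 in untreated cells (0.684, 0.361 to 1.27), and 5 of its 8 introns were on the side of the sum. Its most covered intron, with 77 reads with IL-10 and 80 in untreated cells, gave 0.970, so the direction of Tgfbr2 was not settled. In RPM per intron, the receptors ranked in opposite order in the libraries, with Tgfbr1 at 8.72 and Tgfbr2 at 10.8 in IL-10-treated cells, and Tgfbr1 at 10.5 and Tgfbr2 at 9.98 in untreated cells. Intron counts of the receptors overlapped widely, from 2 to 90 reads with IL-10 and from 0 to 100 in untreated cells, so neither receptor stands clearly above the other.

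Each receptor gene gives annotated transcript forms that differ in the coding region of the extracellular part, and the reads held both forms of each. The sequences are shown because the reads at these junctions tell the forms apart. They are from GENCODE M21 transcripts on the GRCm38 build, plus strand at chr4:47393247-47393258 for the capitals of Tgfbr1 and minus strand at chr9:116158271-116158345 for those of Tgfbr2. The capitals mark the bases that one form has and the other lacks, 12 bases in Tgfbr1 and 75 in Tgfbr2, both whole numbers of codons.
Tgfbr1, upstream acceptor: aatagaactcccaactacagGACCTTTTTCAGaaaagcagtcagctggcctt
Tgfbr1, downstream acceptor: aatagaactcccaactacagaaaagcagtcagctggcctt
Tgfbr2, exon included: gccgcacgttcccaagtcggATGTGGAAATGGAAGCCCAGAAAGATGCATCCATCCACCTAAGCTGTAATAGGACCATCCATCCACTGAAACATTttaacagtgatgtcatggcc

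At this depth no difference in the balance of these forms was detectable. At the donor of Tgfbr1 on chromosome 4 whose introns start at 47396867 (mm9), the acceptor that keeps the 12 bases took 16 of 26 reads with IL-10 (61.5%, exact 95% interval 40.6 to 79.8) and 19 of 33 in untreated cells (57.6%, 39.2 to 74.5). For Tgfbr2, the junction from the 75-base exon took 14 of 26 reads at the acceptor it shares with the skipping junction in IL-10-treated cells (53.8%, 33.4 to 73.4) and 12 of 21 in untreated cells (57.1%, 34.0 to 78.2). The junction into that exon had only 2 reads with IL-10 and 4 in untreated cells. Tgfbr1 also has an annotated alternative first exon, and its junction had 2 reads with IL-10 and 0 in untreated cells.

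**Figure D2:**
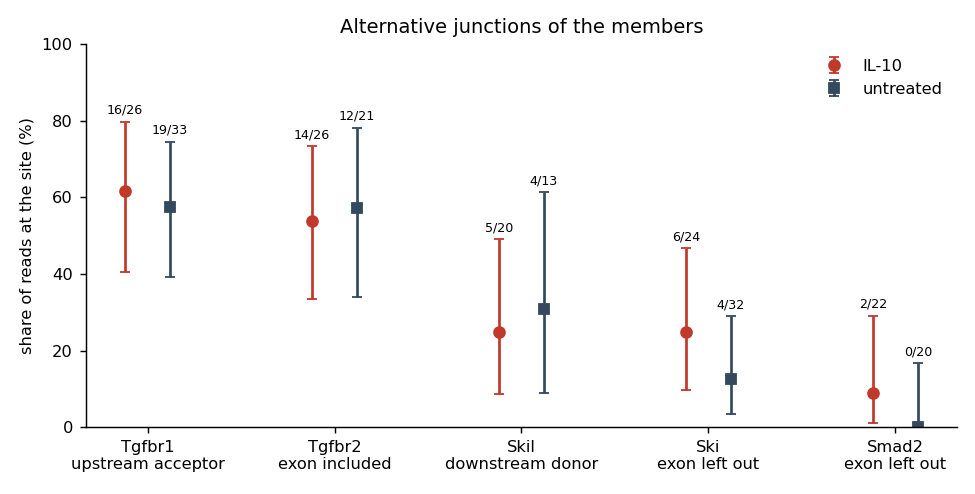
Share of reads that took the named junction at a splice site it shares with others, in percent, with exact 95% binomial intervals as bars and the reads over the site's total above each bar. The intervals of the IL-10 and untreated libraries overlap in each pair, and the Skil site has under 20 reads in untreated cells. For Ski, another junction with fewer reads that also leaves the exon out is not shown.

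The Smad genes formed a moderate pair and a scarce pair. In mm9 the introns of Smad2 lie on chromosome 18 between 76401634 and 76464260, those of Smad4 between 73800124 and 73863083 and those of Smad7 between 75529223 and 75553480, while those of Smad3 lie on chromosome 9 between 63498193 and 63515535. Smad2, a receptor-activated transducer, had 257 reads with IL-10 and 221 in untreated cells (1.17, 0.975 to 1.41), and Smad4, the shared partner of the activated Smads, had 231 with IL-10 and 278 in untreated cells (0.837, 0.700 to 1.0002). Their ratios thus lay on opposite sides of 1, each with an interval that reached 1. Smad2 stood at 5.57 and Smad4 at 5.47 RPM per intron in IL-10-treated cells, and at 4.76 and 6.53 in untreated cells. Neither value was uniform along the gene. In Smad2, an intron of 166 bases had 21 reads with IL-10 and 10 in untreated cells (2.12, 0.954 to 5.03), and the one before it had 10 with IL-10 and 16 in untreated cells (0.630, 0.255 to 1.48). The most covered intron of Smad4 had 74 reads with IL-10 and 72 in untreated cells (1.04, 0.738 to 1.45), and the next had 12 with IL-10 and 22 in untreated cells (0.549, 0.248 to 1.16). Counted on that most covered intron alone, Smad4 lay above 1 instead of below it. Without that intron, with 157 reads with IL-10 and 206 in untreated cells, it lay lower and its interval excluded 1 (0.768, 0.620 to 0.9495), as it did under DESeq2's size factors (0.831, 0.695 to 0.993).

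Smad3, the other receptor-activated transducer and the one that binds DNA directly, had far fewer reads than Smad2: 36 with IL-10 and 30 in untreated cells (1.21, 0.724 to 2.03). Its level was 1.34 RPM per intron in IL-10-treated cells and 1.11 in untreated cells. So few reads leave a wide interval, and its most covered intron had 9 reads with IL-10 and 11 in untreated cells. One of its introns had 6 reads in IL-10-treated cells and 0 in untreated cells. Smad7, the inhibitory Smad and itself a known early target of TGF-beta, had 13 reads with IL-10 and 12 in untreated cells (1.09, 0.459 to 2.62) over its 3 introns. Those introns had 8, 2 and 3 reads with IL-10 and 7, 2 and 3 in untreated cells, nearly the same in each. Its level was 1.13 RPM per intron with IL-10 and 1.03 in untreated cells, next to that of Smad3. A difference of a size within that interval was not detectable at this depth.

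Smad2 carries an alternative exon in its DNA-binding domain whose inclusion is known to hinder that binding. Reads that left the exon out numbered 2 of 22 at its upstream donor in IL-10-treated cells (9.09%, 1.12 to 29.2) and 0 of 20 in untreated cells, which allows a share of up to 15.0% by the limit of 3 reads and 16.8% by the exact interval. Most reads at that donor therefore entered the exon in each library.

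The corepressors Ski and Skil were also close to equal. In mm9 the introns of Ski lie on chromosome 4 between 154531639 and 154595660 and those of Skil on chromosome 3 between 30994080 and 31017376. Ski, whose product binds Smads and recruits histone deacetylases, had 141 reads with IL-10 and 132 in untreated cells (1.08, 0.843 to 1.37). Its level was 6.12 RPM per intron with IL-10 and 5.68 in untreated cells. Skil, a known target of TGF-beta as well as its repressor, had 93 reads with IL-10 and 79 in untreated cells (1.19, 0.869 to 1.62), at levels of 3.03 with IL-10 and 2.55 in untreated cells. In neither gene did the introns run together: 3 of 6 lay on the side of the sum in Ski and 4 of 7 in Skil. The most covered intron of Skil had 30 reads with IL-10 and 35 in untreated cells (0.863), and without its own most covered intron Ski had 90 with IL-10 and 93 in untreated cells (0.975), so the direction of each depended on which introns were counted. One intron of Skil had 6 reads in IL-10-treated cells and 0 in untreated cells, and the one before its last had 8 with IL-10 and 2 in untreated cells. In Ski the introns had from 5 to 51 reads with IL-10 and from 6 to 39 in untreated cells, so they overlapped throughout.

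Ski and Skil each had a coding stretch that part of the reads left out, and these stretches are printed for that reason, with the bases in question in capitals. They are from GENCODE M21 transcripts on GRCm38, at chr3:31113503-31113640 on the plus strand for Skil and chr4:155160834-155160956 on the minus strand for Ski. The stretches are 138 and 123 bases long.
Skil, downstream donor: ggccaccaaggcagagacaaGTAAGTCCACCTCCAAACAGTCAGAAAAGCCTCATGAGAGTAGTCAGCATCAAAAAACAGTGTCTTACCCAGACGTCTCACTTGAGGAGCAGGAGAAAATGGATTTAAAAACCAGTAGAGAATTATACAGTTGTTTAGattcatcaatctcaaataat
Ski, second exon included: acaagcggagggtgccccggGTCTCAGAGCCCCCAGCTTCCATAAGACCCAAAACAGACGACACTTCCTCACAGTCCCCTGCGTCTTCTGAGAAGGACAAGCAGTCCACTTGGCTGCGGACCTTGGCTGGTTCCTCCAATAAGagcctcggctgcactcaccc

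In Skil, most reads took the upstream donor, which leaves the 138 bases out, in each library. The downstream donor, which keeps them, took 5 of 20 reads with IL-10 (25%, 8.66 to 49.1) and 4 of 13 in untreated cells (30.8%, 9.09 to 61.4). In Ski, a junction that is not in the annotation joined the first exon to the third on chromosome 4, over an intron of 60856 bases, and so left out the 123-base exon. It took 6 of 24 reads at the acceptor in IL-10-treated cells (25%, 9.77 to 46.7) and 4 of 32 in untreated cells (12.5%, 3.51 to 29.0). Another junction outside the annotation, from a different donor, also left that exon out. It took 0 of the 24 reads with IL-10 and 2 of the 32 in untreated cells. The difference of 12.5 points thus describes the 60856-base junction and not all skipping of the exon. It was the largest among 33 junctions at 14 shared sites with 20 reads or more per library. Of these junctions, 0 reached 20 points with intervals apart.

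**Figure D3:**
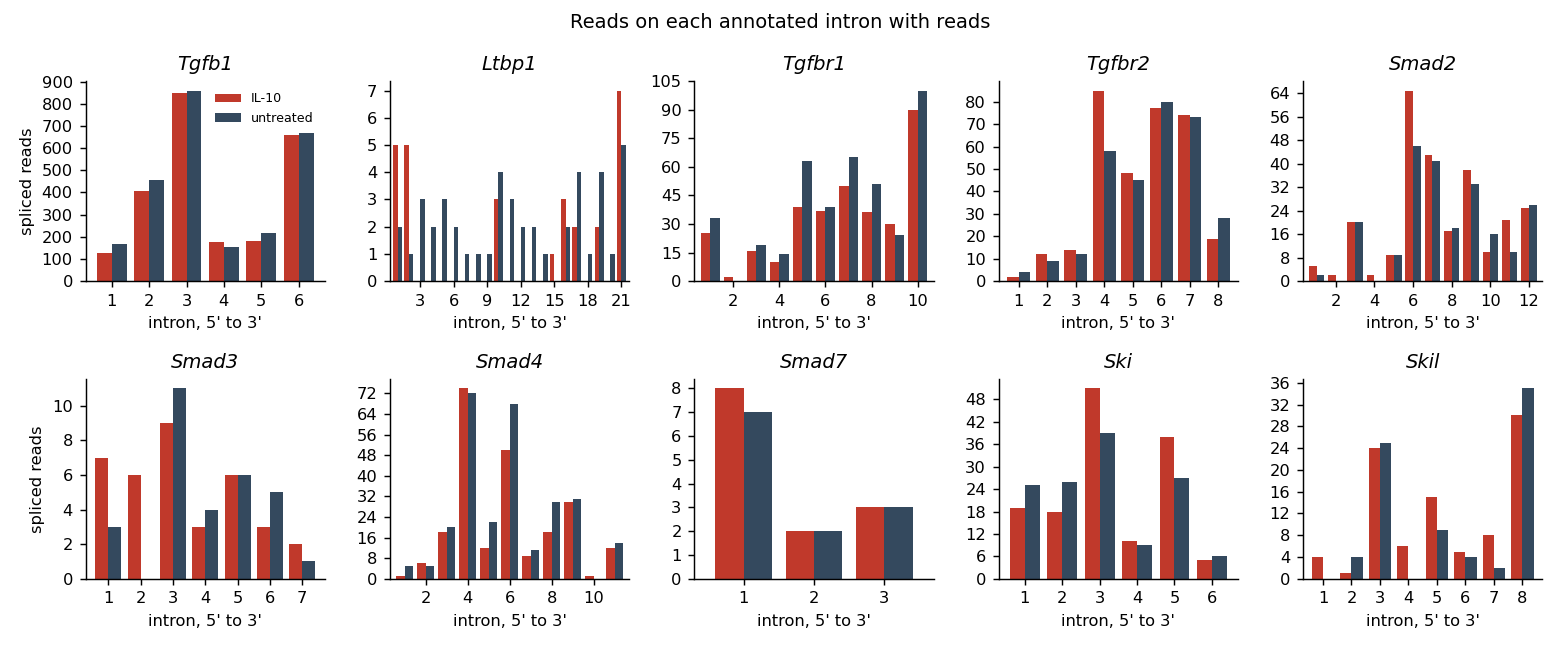
Spliced reads on each annotated intron with reads, numbered from the 5′ end of the gene, with IL-10-treated cells in red to the left of untreated cells in dark blue. Tgfb1 peaks at intron 3 in each library, several introns of Ltbp1 have reads in untreated cells only, and Ltbp1 has at most 7 reads on any intron.

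Most annotated introns of the components were covered. In the coding transcript with the most covered introns, every intron had reads in at least 1 library for Tgfb1, Tgfbr1, Tgfbr2, Smad2, Smad7, Ski and Skil, while Smad3 had 7 of 8, Smad4 10 of 11 and Ltbp1 21 of 33. Over all components, 92 introns had reads and 55 had at least 10 reads in the libraries together. For 3 of these 55 the intron's own interval excluded 1: the first of Tgfb1 and one of Tgfbr1, both lower with IL-10, and one of Tgfbr2, which was higher. In the order of level, Tgfb1 came first, Tgfbr1 and Tgfbr2 followed, then Ski, Smad2 and Smad4, then Skil, Smad3, Smad7 and Ltbp1. That order was the same in the IL-10 and untreated libraries except within the receptor pair and within the group of Ski, Smad2 and Smad4, whose introns overlapped in reads.

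The rest of the pathway was read from 7 lists with 132 further genes, 91 of them measured. Of these, 3 (3.30%) were called higher and 1 lower, beside the 1.76% and 1.48% of all measured genes, with a median log2 ratio of 0.06. The lists were chosen with earlier results of these data known. In the counts by list that follow, the components are included where they belong. Each count of called genes is to be read beside the 3.24% of all measured genes called either way. Among the ligands the only measured gene beside Tgfb1 was Bmp1, in fact a procollagen protease and not a ligand, with 41 reads in each library. The remaining ligand genes had few or no matched reads, among them Tgfb2 with 3 reads with IL-10 and 2 in untreated cells and Tgfb3 with 7 with IL-10 and 9 in untreated cells. The activin subunit gene Inhba had 5 reads in IL-10-treated cells and 0 in untreated cells.

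Of the genes that store, release or activate the ligand, 0 of 16 measured were called, beside 3.24% of all measured genes. The intervals of 6 lay above 1 and those of 2 below, beside 12.8% and 13.1% of all measured genes. Furin, the protease that cleaves the ligand's precursor, had 1273 reads with IL-10 and 870 in untreated cells (1.47, 1.35 to 1.61). Tgm2, the transglutaminase that crosslinks latent complexes to matrix, had 1216 with IL-10 and 836 in untreated cells (1.47, 1.34 to 1.60). Nrros, which tethers latent TGF-beta on myeloid cells, had 106 with IL-10 and 159 in untreated cells (0.672, 0.520 to 0.864). The named genes of this group thus lay on both sides of 1.

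Among 12 measured receptors and coreceptors of the superfamily, the bone morphogenetic protein receptor gene Bmpr1a was called lower with 7 reads in IL-10-treated cells and 20 in untreated cells (0.353, 0.126 to 0.868). The activin receptor gene Acvr2a, with 17 reads with IL-10 and 30 in untreated cells, had a ratio of 0.571 (0.295 to 1.07). Tgfbrap1, which binds the receptors, had a ratio of 0.753 (0.560 to 1.01), and the type I receptor gene Acvr1 one of 1.28 (0.793 to 2.09). The call of Bmpr1a rested on few reads and ended with a 99% interval, with a minimum of 100 reads and without its most covered intron. Of 15 measured Smads and cofactors, the endocytic adaptor gene Dab2, known to bind the receptors and Smads, was called higher with 1576 reads with IL-10 and 547 in untreated cells (2.90, 2.63 to 3.20). The endosomal adaptor gene Zfyve16 (1.39, 0.988 to 1.98) and Runx1 (1.24, 0.918 to 1.68) had intervals that included 1.

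Of 20 measured inhibitors and turnover genes 0 were called, beside 3.24% of all measured genes called either way. The Smad4 ubiquitin ligase gene Trim33 had 91 reads with IL-10 and 148 in untreated cells (0.619, 0.472 to 0.810), and the deubiquitinase genes Usp11 and Usp15 had ratios of 1.75 (0.966 to 3.26) and 0.804 (0.719 to 0.899). The ubiquitin ligase gene Smurf1, whose product marks receptors and Smads for breakdown, had 130 reads with IL-10 and 107 in untreated cells. Of 19 measured genes of the Smad-independent branch 0 were called either, and at that share neither 0 sets its list apart from other genes. There the kinase adaptor gene Tab2, with 187 reads with IL-10 and 113 in untreated cells, stood at 1.67 (1.31 to 2.12), the kinase gene Map2k4 at 1.64 (1.20 to 2.26), Tab3 at 1.59 (0.866 to 2.99) and the kinase gene Mapk8 at 0.649 (0.420 to 0.992).

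Among genes known to be induced by TGF-beta, more intervals lay above 1 than below. Of 24 measured, Smad7 and Skil among them, 2 were called higher and 0 lower, beside 1.76% and 1.48% of all measured genes. The intervals of 9 lay above 1 and that of 1 below, beside 12.8% and 13.1% of all measured genes, and the median log2 ratio was 0.20. However, this list was chosen with earlier results of these data known. Its genes were also not matched in reads to all measured genes, and intervals narrow as reads increase. The shares are therefore not a test of the list. Tgfbi, a secreted matrix protein named for its induction by TGF-beta, had 6452 reads with IL-10 and 1318 in untreated cells (4.93, 4.65 to 5.24), and the osteopontin gene Spp1 had 58937 with IL-10 and 28521 in untreated cells (2.08, 2.05 to 2.11). The protease inhibitor gene Timp1 stood at 1.55 (1.34 to 1.80) and the fibronectin gene Fn1 at 1.47 (1.44 to 1.503). Others of the 24 with intervals above 1 were the thrombospondin gene Thbs1 (1.38, 1.30 to 1.46), Tgm2, the collagen genes Col3a1 (1.38, 1.11 to 1.72) and Col1a2 (1.23, 1.08 to 1.40) and the integrin gene Itgav (1.20, 1.08 to 1.33). Smad7 and Skil had intervals that included 1, and so did a pair of other targets. The Smad corepressor gene Tgif1 had 139 reads with IL-10 and 147 in untreated cells (0.953, 0.750 to 1.21). The feedback inhibitor gene Pmepa1 had 29 with IL-10 and 25 in untreated cells (1.17, 0.661 to 2.08). Axl, a receptor kinase, had 183 reads in IL-10-treated cells and 269 in untreated cells (0.685, 0.565 to 0.830). Thbs1, Col3a1, Col1a2, Itgav, Pmepa1, Tgif1 and Axl were singled out after their values were seen.

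**Figure D4:**
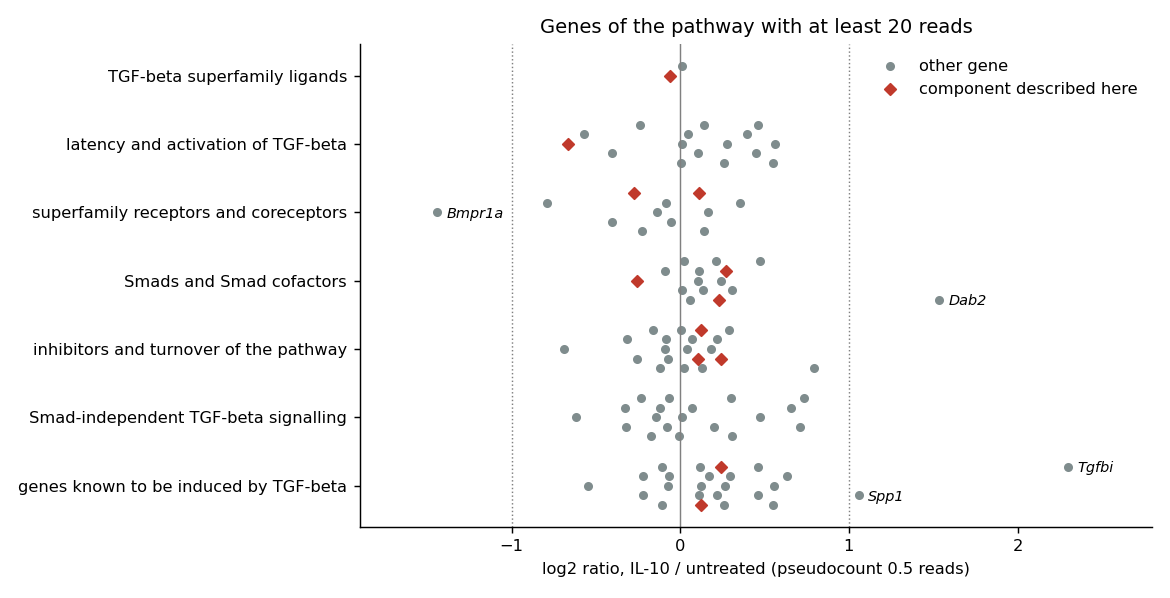
Log2 ratio of IL-10 to untreated for each measured gene of 7 pathway lists, with the components as red diamonds, other genes as grey points and dotted lines at 2-fold. The components lie inside the dotted lines, and the named genes Tgfbi, Dab2, Spp1 and Bmpr1a lie outside them.

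Other cells of the peritoneum can also supply these transcripts, and in a bulk sample fewer cells of a type and less RNA per cell cannot be told apart. Of 12 fibroblast and mesothelial markers 6 were measured, with a summed level of 365 RPM in IL-10-treated cells and 323 in untreated cells. That list shares Col1a1, Col1a2 and Col3a1 with the genes known to be induced by TGF-beta. Of 10 platelet markers 2 were measured and 7 had no matched reads, with sums of 134 with IL-10 and 157 in untreated cells. Here and below, a marker without matched reads may still be transcribed, since a gene with 1 intron or none cannot be named. How many markers this concerns was not counted. The macrophage marker Cd14 had 0 matched reads as well. Of 10 resident peritoneal macrophage markers, a list that holds Ltbp1 itself, 7 were measured, with sums of 75.0 with IL-10 and 66.9 in untreated cells. Of these, 1, the adhesion molecule gene Selp, was called higher, beside 1.76% of all measured genes. It had 29 reads with IL-10 and 6 in untreated cells and was singled out after its values were seen. Markers of neutrophils and of T and NK cells had no matched reads for 10 of 14 and 6 of 10 genes, and their sums were 248 and 3.64 with IL-10, against 228 and 0.517 in untreated cells. Of the neutrophil markers 4 were measured. Of the T and NK markers 0 were measured, and that whole list had 14 reads with IL-10 and 2 in untreated cells. Of 8 B cell markers 2 were measured, with sums of 127 with IL-10 and 141 in untreated cells. Of 10 eosinophil and mast cell markers 2 were measured and 6 had no matched reads, with sums of 27.6 with IL-10 and 18.3 in untreated cells. In that list Siglecf, also singled out after its values were seen, had 86 reads with IL-10 and 48 in untreated cells (1.80, 1.25 to 2.63). The part of these cells in the values of Ltbp1, Tgfb1 or the collagen genes was not tested.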

How the data were processed

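Per the file headers, the deposited values are TopHat junction lists, in which the authors give for each splice junction a count of the reads placed across it, with no scaling. Per the submitters' processing notes, the genome build was mm9 and Cufflinks was also used; versions, options and library strandedness are not given in the sources used here. No mm9 annotation was used. A junction took a gene name from GENCODE M21 (GRCm38) if an annotated intron on its chromosome and strand had exactly its length, and if 2 or more junctions of that gene gave one common offset, of at most 20 Mb, between the builds. Of 131057 junctions, 106738 (81.4%, with 98.2% of reads) matched, against a mean of 3.2 with intron lengths shuffled 5 times. A gene was counted over introns that belong to it alone.

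Ratios carried exact conditional binomial (Clopper-Pearson) intervals, shares exact binomial intervals, and log2 ratios a pseudocount of 0.5 reads. Sums over few reads limit the precision of the scarce genes, and intervals and floors of 3 reads cover counting error only. A gene with 1 intron or none cannot be named by this rule: of 41 pathway genes under 20 reads, 5 have under 2 annotated introns. The components and lists were chosen with earlier results of these data known. Named genes were the 10 components, up to 4 measured genes of each pathway list with the largest absolute log2 ratio, called genes and Tgfbi; others (the marker genes, Tgfb2, Tgfb3 and Inhba among them) were chosen after their values were seen. The procedure was tested on simulated data drawn with counting error alone, which cannot show how the calls behave under spread between samples. The tools were Python 3.11.15 (scipy 1.17.1, numpy 2.4.6, pandas 2.3.3) and, for the scaling alternatives, edgeR 4.0.16 and DESeq2 1.42.0 under R 4.3.3.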

Additional observations from a re-analysis of the deposited data

How the results depend on the processing

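The alternatives were another scaling (edgeR, DESeq2 or all junction reads), another minimum of reads, interval, fold or pseudocount, and another choice of introns or junctions. The counts of 0 components called higher or lower were the same under all 15, at 2-fold except where the fold itself was changed. Several of the 15 could not change a count of 0. A fold of 3, a 99% interval and a minimum of 100 reads can only remove calls. Dropping the minimum adds no component, since all were already measured, and the pseudocount does not enter the calls. For junction shares, 0 were called under each of 4 other alternatives. Among these, a minimum of 50 reads at the site can only remove calls. Without the most covered intron, 1 component, Ltbp1, was 1.5-fold lower. Log2 ratios of components were recomputed 124 times. Another minimum of reads, a 99% interval and adding introns shared with other genes gave the main values again, which are inside their own interval. Of the 124, 121 stayed inside the main 95% interval. The 3 others came from the intron with the most reads alone, at 0.50 for Smad2, 0.050 for Smad4 and -0.21 for Skil, where fewer reads are counted. The sign changed in 5, each from a choice of introns. Of the 91 further pathway genes measured, 6 were higher and 3 lower at a fold of 1.5, beside 4.25% and 4.01% of all measured genes. At a fold of 3, 1 was higher and 0 lower, and the share of all measured genes at that fold was not computed. The single lower gene, Bmpr1a, was lost, giving 0, with at least 100 reads, a 99% interval or without the most covered intron, and had too few reads on the most covered intron alone, where another gene made the count of 1. The 3 higher genes became 2 without the most covered intron, where Spp1 (log2 ratio 0.97) was lost. They became 4 on the most covered intron alone, where Tab2 (1.04) was added. With no minimum of reads they also became 4, where Cx3cr1 was added with 6 reads with IL-10 and 0 in untreated cells. Joining same-length placements of a junction was chosen after seeing the data. Smad3, Smad7 and Ltbp1 have under 100 reads and give no value at that minimum. No paired analysis was possible because each group has 1 library.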

Other observations

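Inside the spans of the component genes, 21 junctions matched no annotated intron, with 38 reads in IL-10-treated cells and 36 in untreated cells, and 0 of them had an interval that excluded 1. The most read of them lay on the minus strand, opposite Tgfb1 on chromosome 7, from 26482286 to 26489137 (mm9), with 13 reads with IL-10 and 12 in untreated cells. It has the length of the fifth intron of Tgfb1, 6852 bases, and lies 6 bases away from it. In Skil, a junction with 5 reads with IL-10 and 3 in untreated cells has the length of an annotated intron, 13205 bases, and lies 4 bases away from it. Tgfb1 also had reads that joined the donor of intron 4 to the acceptor of intron 5, 2 in IL-10-treated cells and 4 in untreated cells.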
